A study of Mus musculus with 3 samples.

Results

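The effect of putting Pcgf1 back into Pcgf1KO mouse embryonic stem (ES) cells was examined by comparing RNA-seq values of Pcgf1KO+Pcgf1_flag cells with those of Pcgf1KO cells. A gene entered the comparison when it was listed under a single gene name and had a value of 1 FPKM or more in both samples, where FPKM is the number of sequenced fragments scaled to the length of the transcript and the depth of the library. This held for 8883 of the 25595 genes listed under a single name in both samples. The genes described as higher or lower were chosen by the ratio of these 2 values alone, past 2-fold, and the wildtype values stand beside them without having been used in the choice.

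All samples were ES cells of strain C57BL/6, grown in serum with leukemia inhibitory factor on mouse embryonic fibroblasts that had been inactivated with mitomycin-C. The Pcgf1KO cells carried a Cas9-made deletion in Pcgf1 and came from a single colony. The Pcgf1KO+Pcgf1_flag cells were the same knockout cells after lentiviral delivery of Pcgf1 with a FLAG tag and selection with puromycin, so they carried the deletion, the virus and the selection together. The third sample was wildtype cells. Each of the 3 groups had 1 sample, so no difference has a replicate check, no test was run, and no value has an error between cultures.

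Pcgf1 is 1 of the 6 Pcgf proteins that define the variants of Polycomb repressive complex 1 (PRC1). The complex places ubiquitin on histone H2A through Ring1 or Rnf2, and the variant with Pcgf1, called PRC1.1, also holds Kdm2b, Bcor and Rybp or Yaf2. Kdm2b binds unmethylated CpG islands and brings the complex to them. In ES cells Polycomb complexes are known for keeping developmental regulators low, and a variant with Pcgf6 is known for keeping germline genes low.

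Pcgf1 itself (ENSMUSG00000069678, chromosome 6, 83077869 to 83080855, plus strand, mm10) was at 5.88 FPKM in Pcgf1KO, 7.86 in Pcgf1KO+Pcgf1_flag and 14.0 in wildtype. The value in the re-expressing sample was thus 1.34-fold that in the knockout, inside the 2-fold limit. The form of the transcript differed more than its level. In Pcgf1KO all 5.88 FPKM belonged to a transcript that skips exons 2 and 3 (83078895 to 83079000 and 83079116 to 83079268), both within the coding part of the gene, and the form containing them was listed at 0. Neither the Pcgf1KO+Pcgf1_flag nor the wildtype list had a row for skipping these exons. Transcripts from the virus and from the locus cannot be told apart in the list, and the missing skipping row means that the deleted form was not listed in the re-expressing cells although their locus carries the deletion.

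The lists held 155552 rows for Pcgf1KO, 156379 for Pcgf1KO+Pcgf1_flag and 156133 for wildtype. The lowest FPKM values moved in steps that, if a step is 1 fragment, place 42.6 fragments in Pcgf1KO and 40.8 in Pcgf1KO+Pcgf1_flag on a 2-kb transcript at 1 FPKM. Markers of ES cells were present in both samples. Pou5f1, the central pluripotency factor, was at 518 FPKM in Pcgf1KO and 626 in Pcgf1KO+Pcgf1_flag, and Tdgf1, a Nodal co-receptor, was at 519 and 394. Sox2 was not under a single name in both samples. Of the 31 feeder fibroblast markers 10 reached 1 FPKM in both samples, with a median log2 ratio of 0.01. Only the surface protein gene Thy1 was past 2-fold (6.39 FPKM in Pcgf1KO, 13.5 in Pcgf1KO+Pcgf1_flag), beside 3.25% higher over all genes at that minimum. The summed level of the feeder markers was 228 FPKM in Pcgf1KO, 210 in Pcgf1KO+Pcgf1_flag and 277 in wildtype, most of it from Fn1, Timp1 and Vim. The fibroblast collagen genes Col1a1 (0.390 to 2.21 FPKM) and Col1a2 (0.0213 to 0.148) were low in both samples. They were among 6 of the 11 low markers that were more than 2-fold higher, beside 39.5% of all genes that were above 0 in both samples and below 1 FPKM in at least 1, while Twist1 was lower (3.19 and 0.763 FPKM) and Postn and Fap were listed at 0 in both. The part of feeder RNA in the results was not tested.

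Of the 8883 genes, 289 (3.25%) were more than 2-fold higher and 251 (2.83%) more than 2-fold lower in Pcgf1KO+Pcgf1_flag than in Pcgf1KO. The median log2 ratio over all genes was -0.03, with the middle part of the genes (25th to 75th percentile) between -0.27 and 0.21. Only 34 genes were past 4-fold higher and 18 past 4-fold lower. The direction of the changes went with the level of the gene. Where the lower of both values was between 1 and 2 FPKM, 10.8% of 1014 genes were higher and 6.11% lower, and where it was 50 FPKM or more, 0.526% of 1140 genes were higher and 1.14% lower. Among the 4370 genes at 10 FPKM or more in both samples, 38 were higher and 65 lower, so that the share of higher genes among the changed ones was 36.9% there and 53.5% over all 8883 genes.

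**Figure D1:**
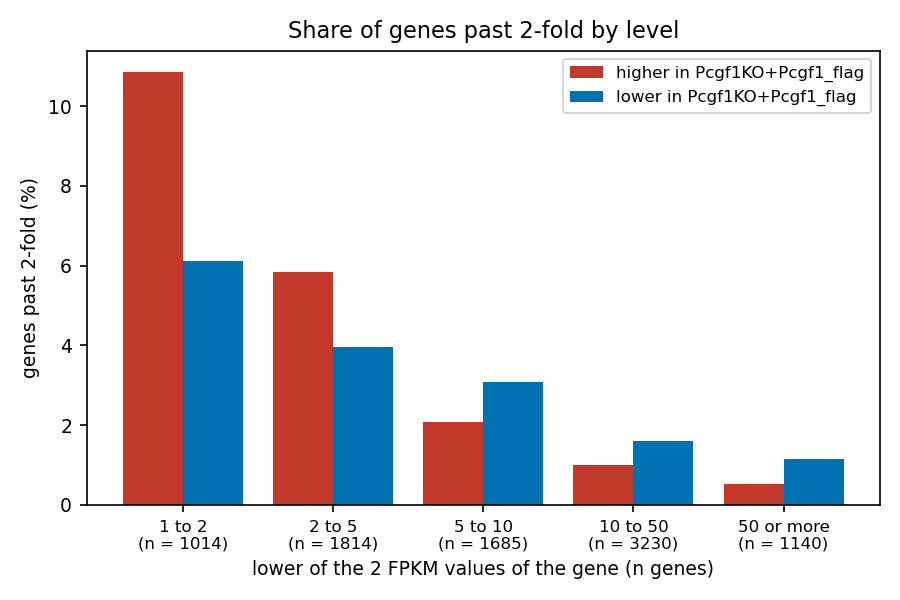
Percentage of genes more than 2-fold higher (red) or lower (blue) in Pcgf1KO+Pcgf1_flag than in Pcgf1KO, by the lower of the 2 FPKM values of the gene, with the number of genes under each pair of bars. Higher genes outnumber lower ones below 5 FPKM (10.8% against 6.11% between 1 and 2 FPKM), and the order turns above (0.526% against 1.14% at 50 FPKM or more).

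At the limits of these choices, Zc3h12c (1.0005 FPKM in Pcgf1KO, 1.0065 in Pcgf1KO+Pcgf1_flag) lay just inside the minimum and Napsa (0.9986 and 1.3491) just outside. Zdhhc23, at 1.63 and 3.26 FPKM, was the higher gene nearest to 2-fold, and Fbxo28, at 2.61 and 5.21 FPKM, lay just below it. On the lower side Tgfb1i1 (2.35 and 1.17 FPKM) was just past 2-fold and Fam13b (4.71 and 2.36 FPKM) just short of it.

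The list of germline genes had the highest median ratio of all lists. Of the 20 genes in the germline list, 8 were at 1 FPKM or more in both samples, and all 8 were more than 2-fold higher in Pcgf1KO+Pcgf1_flag, beside 3.25% over all genes. By the lower of both values, that share was 10.8% between 1 and 2 FPKM and 5.84% between 2 and 5 FPKM. The median log2 ratio of the 8 was 1.62, beside -0.03 over all genes. These 8 are Mael and Ddx4, which act in the piRNA pathway of germ cells, Sycp1 and Sycp3, which build the synaptonemal complex of meiotic chromosomes, the homeobox genes Rhox5, Rhox6 and Rhox9 and the tubulin gene Tuba3a. The list holds genes that are known in ES cells as targets of DNA methylation or of the Pcgf6 variant of PRC1, whose DNA-binding members Mga, Max and E2f6 recognise E-box and E2F letters.

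The sequences before the starts of 4 of these genes are shown because they carry such letters. Each is the 150 bases before the RefSeq start (GRCm38.p6, the assembly of mm10), read 5′ to 3′ on the strand of the gene, with E2F letters (GCGGGAA or its reverse complement TTCCCGC) and E-box letters (CACGTG, the same on both strands) in capitals. Ddx4 is at chr13:112652311-112652460 on the minus strand, Sycp1 at chr3:102936101-102936250 on the minus strand, Sycp3 at chr10:88459437-88459586 on the plus strand and Tuba3a at chr6:125286082-125286231 on the minus strand.
Ddx4: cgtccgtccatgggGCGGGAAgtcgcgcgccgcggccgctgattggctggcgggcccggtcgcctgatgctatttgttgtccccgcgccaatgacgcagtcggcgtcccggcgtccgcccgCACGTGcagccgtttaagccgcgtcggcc
Sycp1: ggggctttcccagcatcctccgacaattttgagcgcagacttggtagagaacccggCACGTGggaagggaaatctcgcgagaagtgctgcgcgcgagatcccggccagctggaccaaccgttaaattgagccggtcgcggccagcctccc
Sycp3: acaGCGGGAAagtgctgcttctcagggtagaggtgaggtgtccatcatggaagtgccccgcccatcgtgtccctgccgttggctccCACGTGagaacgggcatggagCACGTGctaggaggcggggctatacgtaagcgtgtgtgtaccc
Tuba3a: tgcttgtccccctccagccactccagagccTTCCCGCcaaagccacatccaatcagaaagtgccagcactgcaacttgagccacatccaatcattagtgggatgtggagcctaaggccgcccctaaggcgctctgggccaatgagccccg

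Over the whole RefSeq window of 300 bases (250 before and 50 after the start), the E-box letters were present in 9 and the E2F letters in 6 of the 16 germline genes that were above 0 in both samples and matched to a window, out of 19 above 0. Among all 32851 RefSeq windows, 7.15% held the E-box letters and 4.60% the E2F letters. The letters TATAAA were in 2 of the 16 windows and in 13.6% of all windows, and the Klf letters (GGGNGTGG) in 5 of the 16 and in 17.6% of all. The list was drawn up from genes known for this kind of control, so its share of motifs is no independent finding, and a match is only a description of the letters. A comparison of the promoters of all higher and lower genes is void, since windows matched only 184 of the 289 higher and 167 of the 251 lower genes.

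Mael had 4.41 FPKM in Pcgf1KO, 33.4 in Pcgf1KO+Pcgf1_flag and 4.49 in wildtype, a 7.57-fold difference between the first pair. Ddx4 was at 8.88, 26.1 and 7.01 FPKM in the same order. For both genes the re-expressing sample stood apart and the knockout and wildtype values were close. Sycp1 followed the same order of samples with 1.17, 5.72 and 1.23 FPKM. Sycp3 was at 3.50, 7.93 and 6.64 FPKM, so that its knockout value was the low one. Tuba3a was at 2.51, 11.5 and 3.71 FPKM.

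Rhox5, an X-linked homeobox gene of the reproductive tract and placenta, was the most abundant gene of the list, with 129 FPKM in Pcgf1KO, 414 in Pcgf1KO+Pcgf1_flag and 24.4 in wildtype. Its ratio depended on which rows were summed, since its first exons gave only 188 FPKM in Pcgf1KO+Pcgf1_flag, a log2 ratio of 0.54. Rhox6 was at 10.7, 28.4 and 5.49 FPKM and Rhox9 at 7.08, 16.8 and 5.06 FPKM. All Rhox genes had their lowest value in wildtype. Sycp3 was the member closest to the 2-fold limit, and its log2 ratio of 1.18 was 0.75 over last exons alone.

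Of the other 12 germline genes, Tdrkh was listed at 0 in both samples, and 11 were above 0 in both and below 1 FPKM in at least 1 of them. All 11 were more than 2-fold higher in Pcgf1KO+Pcgf1_flag, beside 1319 (39.5%) higher and 328 (9.82%) lower among the 3341 genes in that range. Taf7l, a germ cell partner of the basal transcription machinery, was at 0.329 FPKM in Pcgf1KO, 4.57 in Pcgf1KO+Pcgf1_flag and 0.657 in wildtype. Tex11, needed for meiotic recombination, was at 0.233, 4.43 and 0.822 FPKM, and Hormad1, a protein of meiotic chromosome axes, at 0.807, 4.47 and 0.641 FPKM. Dazl, an RNA-binding protein of germ cells, was at 0.737, 3.70 and 0.201 FPKM. The other members of this range were Stk31, Tex101, Slc25a31, Stra8, Tuba3b, Asz1 and Mov10l1, with 0.180 to 3.25 FPKM in Pcgf1KO+Pcgf1_flag.

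Further germ cell genes stood among the 20 highest ratios without being in the list. Sohlh2, a transcription factor of early germ cells, was at 2.44 FPKM in Pcgf1KO, 22.2 in Pcgf1KO+Pcgf1_flag and 4.0 in wildtype. The synaptonemal complex genes Syce1 (2.16, 13.5 and 1.62 FPKM) and Syce3 (1.55, 9.19 and 1.94 FPKM) and the Piwi gene Piwil2 (4.52, 25.2 and 6.16 FPKM) had the same order of samples in that the re-expressing one was highest. Tex19.1, which restrains retrotransposons in germ cells, was among the 10 highest ratios at 10 FPKM or more, with 31.0, 89.7 and 28.9 FPKM. At least 1 gene with a role in sperm formation had the opposite sign, and no count of such genes among the lower ones was made. Mns1, a protein of sperm flagella and meiotic nuclei, had the lowest ratio of all 8883 genes, with 9.53 FPKM in Pcgf1KO and 1.09 in Pcgf1KO+Pcgf1_flag. These values came from first exons, and its last exons were at 7.62 and 0 FPKM. The value in Pcgf1KO+Pcgf1_flag was close to the minimum, and the gene had no single-name value in wildtype.

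**Figure D2:**
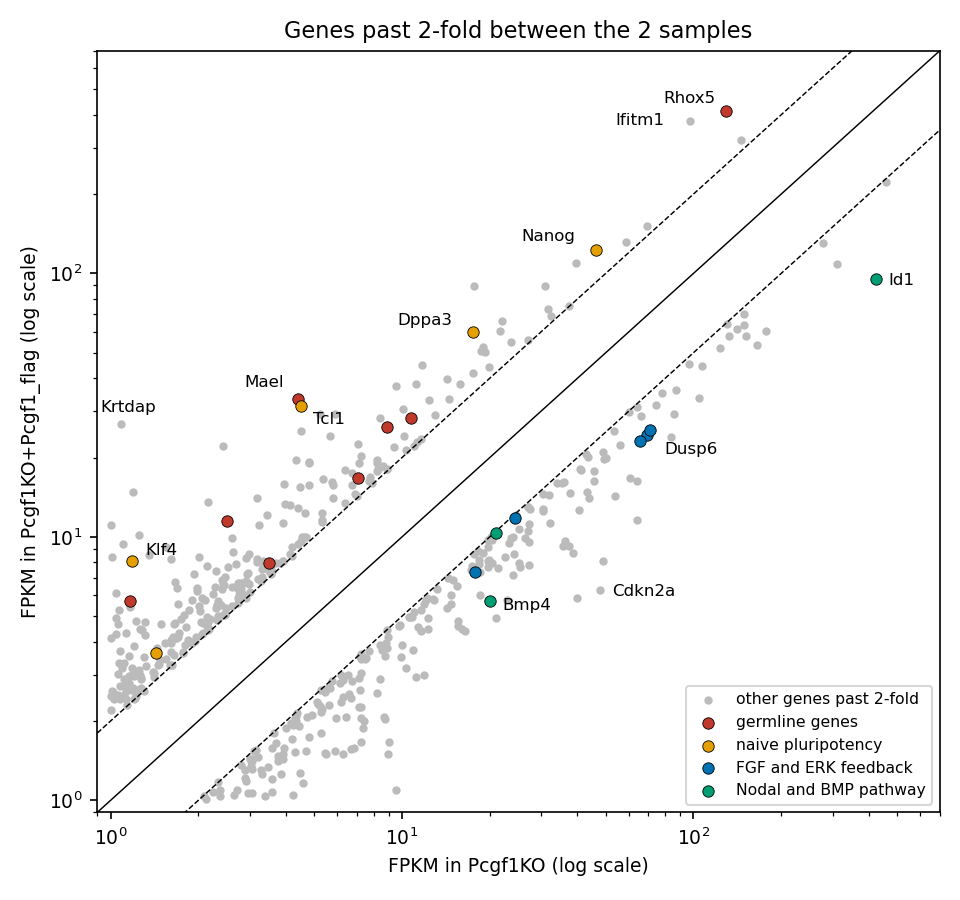
FPKM in Pcgf1KO (x axis) against FPKM in Pcgf1KO+Pcgf1_flag (y axis), both on log scales, of the 540 genes past 2-fold, 1 point per gene, with members of 4 lists coloured. The solid line marks equal values and the dashed lines 2-fold, and all coloured germline genes (red) lie above the upper dashed line while those of the FGF and ERK and of the Nodal and BMP lists lie below the lower one. Only genes past 2-fold are drawn, so list members inside 2-fold do not appear.

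Pluripotency genes split into a few that were past 2-fold higher and a core with little difference. Of 26 genes in the naive pluripotency list 20 were at 1 FPKM or more in both samples. Of these 20, 5 were more than 2-fold higher, none was lower, beside 3.25% higher over all genes, and the median log2 ratio was 0.09. With a minimum of 5 FPKM 2 members were higher and the median was -0.10, and with 10 FPKM it was -0.13. Nanog, a homeobox factor of the naive state, was at 46.3 FPKM in Pcgf1KO, 123 in Pcgf1KO+Pcgf1_flag and 68.2 in wildtype. Klf4, a Kruppel-like factor downstream of Stat3, was at 1.19, 8.07 and 2.62 FPKM, a 6.79-fold difference. In both genes the re-expressing sample was above wildtype and the knockout below it.

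Tcl1, a co-activator of Akt kinase, was at 4.50, 31.5 and 9.11 FPKM, and Dppa3, a maternal factor that protects DNA methylation at imprints, at 17.5, 60.1 and 38.3 FPKM. Tbx3, a T-box factor of the naive network, was low throughout, with 1.43, 3.61 and 0.233 FPKM. The remaining naive genes stayed inside 2-fold. Esrrb was at 94.8 FPKM in Pcgf1KO and 77.2 in Pcgf1KO+Pcgf1_flag, Zfp42 at 51.7 and 35.7, and Klf2 at 590 and 357. Thus Klf2 and Klf4, members of one family, had ratios of opposite sign, with only that of Klf4 past 2-fold. Tfcp2l1, Dppa2, Dppa5a and Fbxo15 were, like Sox2, not under a single name in both samples, and Gdf3 was listed at 0 in both.

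The state after the naive one was represented by few genes. Of 14 primed epiblast genes 3 were at 1 FPKM or more in both samples. Zic2, a zinc finger factor of the epiblast and neural plate, was at 1.0 FPKM in Pcgf1KO, 11.1 in Pcgf1KO+Pcgf1_flag and 17.2 in wildtype, the third highest ratio of all (11.0-fold). Otx2, which stood below the minimum in Pcgf1KO, was at 0.382, 1.66 and 2.35 FPKM. For both factors the knockout value was the low one and the other samples were nearer to each other. The DNA methyltransferase Dnmt3a was at 22.7 and 34.1 FPKM and the epithelial factor gene Grhl2 at 7.17 and 4.70 FPKM, both inside 2-fold, and Fgf5 was listed at 0 in Pcgf1KO and 0.0488 in Pcgf1KO+Pcgf1_flag.

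Of 18 genes in the Nodal and BMP list 13 were at the minimum in both samples. Of these 13, 3 were more than 2-fold lower, 10 were inside 2-fold and none was higher, beside 2.83% lower over all genes, and the median log2 ratio was -0.43. After scaling to a median log2 ratio of 0, 2 were lower, Smad7 then being inside 2-fold. Id1, a target of BMP signalling that blocks basic helix-loop-helix factors, was the most abundant of the 20 genes with the lowest ratios. It was at 423 FPKM in Pcgf1KO, 95.04 in Pcgf1KO+Pcgf1_flag and 85.1 in wildtype, a 4.45-fold difference. The ligand Bmp4 was at 19.97, 5.69 and 2.64 FPKM and the inhibitor Smad7 at 20.9, 10.3 and 8.33 FPKM. In each of these 3 genes the knockout sample was the high one. The related targets Id2 (118 and 125 FPKM) and Id3 (35.9 and 31.0 FPKM) were inside 2-fold, as were Nodal (24.8 and 22.7 FPKM) and the receptor gene Bmpr1a (15.8 and 9.49 FPKM).

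Feedback genes of FGF and ERK signalling were also lower in part. Of 17 genes 12 were at the minimum, 5 were more than 2-fold lower and none was higher, beside 2.83% lower and 3.25% higher over all genes, and the median log2 ratio was -0.28. Dusp6, a phosphatase that removes phosphate from ERK, was at 69.5 FPKM in Pcgf1KO, 24.4 in Pcgf1KO+Pcgf1_flag and 44.5 in wildtype. The related phosphatase gene Dusp4 was at 17.8, 7.37 and 11.1 FPKM. Etv4, an Ets factor induced by FGF, was at 70.7, 25.4 and 29.7 FPKM, while its relative Etv5 was at 98.9 and 116 FPKM, inside 2-fold. Myc was at 65.5, 23.2 and 30.3 FPKM and the receptor gene Fgfr1 at 24.3, 11.8 and 21.8 FPKM. In all 5 lower genes the re-expressing sample was lowest, the knockout highest and wildtype between them. The ligand Fgf4 was at 69.2 and 75.7 FPKM, Spry1 at 7.32 and 5.84, and Spry2 and Spry4 were listed at 0 in both.

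Cell cycle inhibitors held the second lowest ratio of all genes. Cdkn2a, the locus of p16 and p19Arf, was at 47.7 FPKM in Pcgf1KO, 6.30 in Pcgf1KO+Pcgf1_flag and 14.3 in wildtype, which is 7.57-fold lower with the re-expressed gene. It is a classic Polycomb target. Cdkn1b, the gene of p27, was at 10.9, 3.72 and 11.0 FPKM, so that here the re-expressing sample stood apart. Cdkn1a (14.9 and 11.8 FPKM) and Cdkn1c (34.5 and 56.0 FPKM) were inside 2-fold and Cdkn2b was listed at 0 in both. None of the 26 cell cycle and replication genes at the minimum was past 2-fold, the nearest being Tyms, the thymidylate synthase gene, at 23.6 and 47.0 FPKM. Over all genes 3.25% were higher and 2.83% lower.

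Members of the trophectoderm, endoderm and matrix lists were lower in part. Of 6 trophectoderm genes at the minimum, 3 were more than 2-fold lower and 1 higher, beside 2.83% lower and 3.25% higher over all genes. The median log2 ratio of the 6 was -0.97. The keratin genes Krt8 (66.3 FPKM in Pcgf1KO, 28.9 in Pcgf1KO+Pcgf1_flag, 68.9 in wildtype) and Krt18 (49.1, 21.0 and 61.1 FPKM), whose products pair in simple epithelia, were lowest in the re-expressing sample, with knockout and wildtype closer together. Tead4, a factor of trophectoderm specification, was at 10.6, 4.95 and 4.99 FPKM. The imprinted trophoblast factor Ascl2 went the other way with 8.19, 19.7 and 14.7 FPKM. The defining trophectoderm factor Cdx2 was at 0.203 and 0.123 FPKM and Hand1 was listed at 0 in both.

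The paired collagen IV genes Col4a1 (24.0, 7.15 and 9.74 FPKM) and Col4a2 (11.2, 2.95 and 5.36 FPKM), which lie head to head and encode a trimer of the basement membrane, were both lower. They were the only members past 2-fold among 7 endoderm genes, and the laminin genes of the same list, Lama1, Lamb1 and Lamc1, were within 1.12-fold of equality. In the extracellular matrix and adhesion list 3 of 23 genes were lower, these collagen genes and the integrin gene Itgav (8.90, 3.80 and 5.35 FPKM), and none was higher. The endoderm and matrix counts stand beside 2.83% lower and 3.25% higher over all genes. Podxl, a sialomucin of the cell surface, was at 53.8, 14.3 and 28.0 FPKM and stood among the 10 lowest ratios at 10 FPKM or more.

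**Figure D3:**
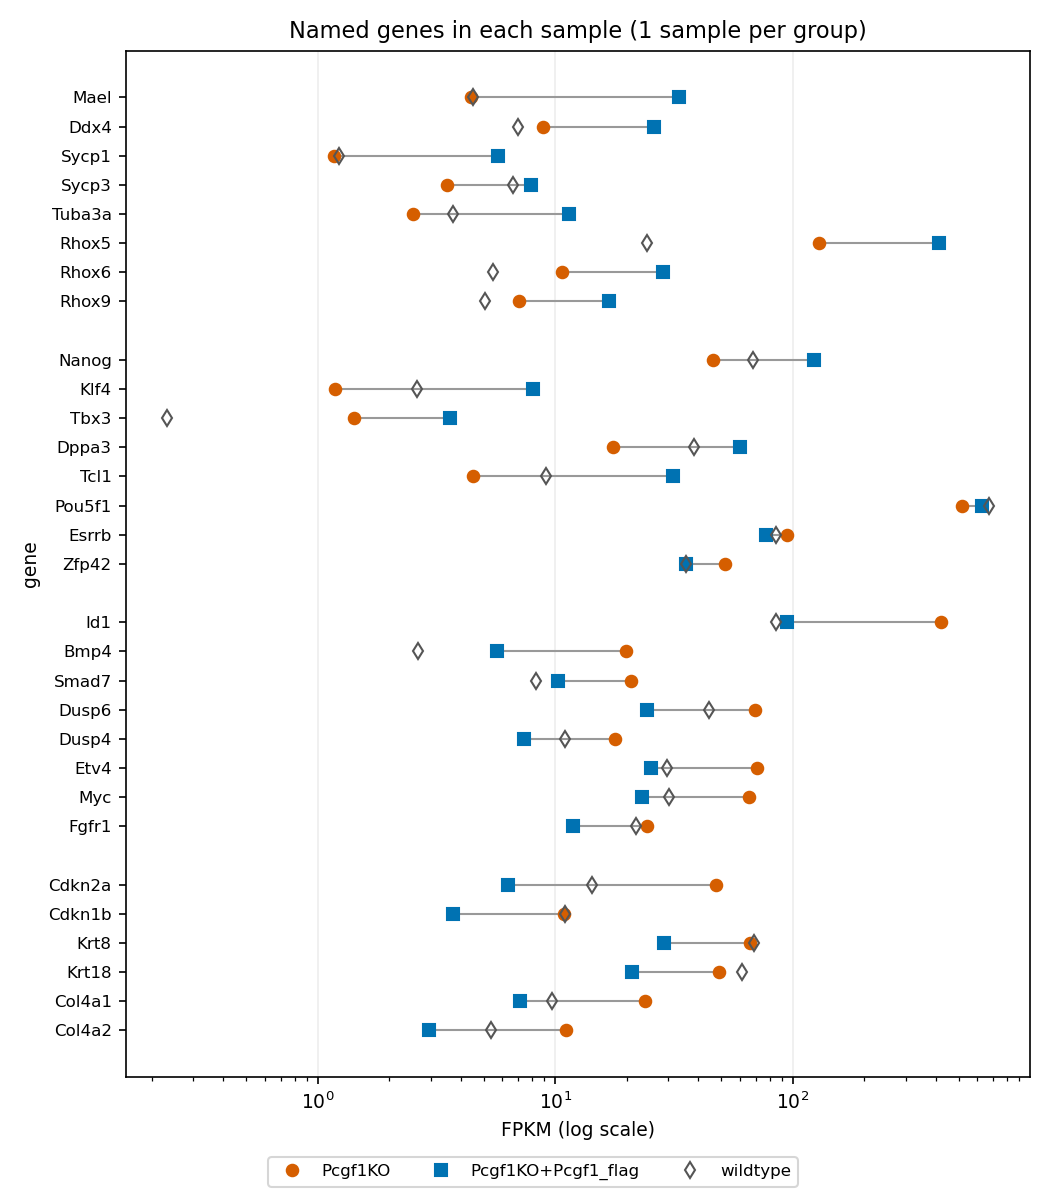
FPKM (log scale) of named genes in Pcgf1KO (orange circles), Pcgf1KO+Pcgf1_flag (blue squares) and wildtype (open diamonds), 1 sample each, with a grey line between the first pair. From top to bottom the blocks are germline genes, pluripotency genes, Nodal, BMP, FGF and ERK genes, and cell cycle inhibitors, keratins and collagens. The squares lie right of the circles in the germline block and left of them in the lower 2 blocks. The genes of the lower 2 blocks were picked as past 2-fold lower, so their side was set by the choice. Members inside 2-fold, such as Etv5, Id2, Fgf4 and Cdkn1c, are not drawn there.

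Of the listed Polycomb genes at the minimum in both samples, 1 was past 2-fold, beside 3.25% higher and 2.83% lower over all genes. Among 7 PRC1.1 genes at the minimum only Rybp, which binds ubiquitinated H2A, was past 2-fold. It was at 40.3 FPKM in Pcgf1KO, 12.6 in Pcgf1KO+Pcgf1_flag and 30.3 in wildtype. The 12.6 FPKM came from first exons alone, since its last exons were listed at 0 in Pcgf1KO+Pcgf1_flag. Bcor was at 5.33 and 9.49 FPKM, Yaf2 at 8.16 and 5.87, Ring1 at 3.27 and 3.29 and Usp7 at 103 and 122, all inside 2-fold. Kdm2b was not under a single name in both samples, and neither was Rnf2, at 39.4 FPKM in Pcgf1KO. None of 17 other PRC1 genes and none of 10 PRC2 genes at the minimum was past 2-fold. Those of the Pcgf6 variant were at 21.0 and 27.3 FPKM for Pcgf6, 17.8 and 17.1 for Mga, 39.1 and 34.4 for Max, 41.3 and 36.9 for L3mbtl2 and 7.86 and 12.3 for E2f6. In PRC2, the catalytic Ezh2 was at 34.8 and 37.4 FPKM and Suz12 at 42.9 and 61.6 FPKM. Sfmbt2, a Polycomb gene outside these lists that is imprinted in extraembryonic tissue, was among the 20 lowest ratios, with 23.0, 5.76 and 5.33 FPKM.

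Of the DNA methylation genes, 1 of 10 was past 2-fold, beside 3.25% higher and 2.83% lower over all genes. Tet2, an enzyme that oxidises 5-methylcytosine, was at 1.67 FPKM in Pcgf1KO, 6.76 in Pcgf1KO+Pcgf1_flag and 2.33 in wildtype, while Tet1 was at 46.0 and 47.2 FPKM and Dnmt1 at 51.4 and 52.4. Of 14 imprinted genes Peg3 was higher (15.8, 37.9 and 32.2 FPKM) and Nnat lower (40.8, 18.0 and 36.2 FPKM), beside the same shares over all genes.

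The highest ratio of all belonged to Krtdap, a gene of differentiating keratinocytes, with 1.09 FPKM in Pcgf1KO, 26.8 in Pcgf1KO+Pcgf1_flag and 7.90 in wildtype. Its first exons gave these values, and its last exons were at 0 and 6.03 FPKM. Prr19 followed with 1.19, 14.9 and 5.42 FPKM, and Serpinf1, a secreted inhibitor of vessel growth, with 1.1, 9.36 and 7.44 FPKM. The aldehyde dehydrogenase gene Aldh3a1 was at 1.01, 8.40 and 4.12 FPKM. The knockout value of each of these genes was close to the minimum of 1 FPKM and the lowest of the samples.

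Among abundant genes the highest ratios were those of Calcoco2, an autophagy receptor (17.6, 89.7 and 14.2 FPKM), and Ifitm1, an interferon-induced membrane protein also known from early germ cells (97.5, 379 and 482 FPKM). Ifitm1 was the only one of 10 interferon response genes at the minimum that was past 2-fold, beside 3.25% higher and 2.83% lower over all genes. Of the 9 members of this list that were above 0 in both samples and below 1 FPKM in at least 1, 8 were more than 2-fold higher and 1 lower, beside 39.5% higher and 9.82% lower in that range. Fundc2, an X-linked mitochondrial membrane protein, was at 11.7, 44.9 and 58.6 FPKM. Calcoco2 was thus high in the re-expressing sample alone, and Ifitm1 and Fundc2 were low in the knockout alone. On the lower side Pla2g7, which inactivates platelet-activating factor, was at 39.7, 5.84 and 8.14 FPKM, and Perp, a p53 target of cell junctions, at 43.7, 14.0 and 17.0 FPKM. Pcbp3 (64.2, 11.6 and 18.3 FPKM) had this difference over first exons alone, and its last exons were at 10.6 and 11.6 FPKM.

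Several other lists had a single member or a pair past 2-fold, beside 3.25% higher and 2.83% lower over all genes. Hes6, a Hes family factor of neural precursors, was higher (17.5, 41.7 and 56.3 FPKM) among 7 ectoderm and neural genes. Ero1l, an oxidase of the endoplasmic reticulum, was lower (27.5 and 12.8 FPKM) among 28 glycolysis and hypoxia genes. Tcf7l2, a nuclear partner of beta-catenin, was lower (11.0 and 5.17 FPKM) among 7 Wnt genes. Among 7 immediate early genes Nr4a1 (45.6 and 17.7 FPKM) was lower together with Myc. Perp was the only one of 16 p53 targets past 2-fold, and Bmp4 the only one of 3 primitive streak and mesoderm genes. In the list for LIF and Stat3 signalling, Klf4 alone was past 2-fold among 8 genes, and the list median was -0.36.

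The lists of housekeeping and stress genes held no member past 2-fold. They covered 28 ribosomal protein genes (median log2 ratio -0.15), 21 genes of oxidative phosphorylation (-0.12), 21 of the integrated stress response (0.09), 13 of heat shock and protein folding (0.08), 17 of metallothionein and oxidative stress (-0.33), 15 SRF and YAP targets (-0.30), 13 of the Notch and Hedgehog pathways (0.01) and 11 reference genes (-0.17). The 10 genes for silencing of viral vectors and for drug export, listed because these cells carry a lentivirus and were selected, also had none past 2-fold (0.22). Over all genes 3.25% were higher and 2.83% lower, and 0.526% and 1.14% where the lower value was 50 FPKM or more. A lack of calls in lists of this size is therefore no result about them. Actb was at 1540 and 1499 FPKM and Hprt at 111 and 101 FPKM. Genes of these kinds outside the lists were past 2-fold, among them, chosen after their values were seen, the ribosomal protein gene Rps7 (1304 and 2669 FPKM) on the higher side and the complex I gene Ndufs4 (83.5 and 24.0 FPKM) and the mitochondrial acyl carrier protein gene Ndufab1 (149 and 63.9 FPKM) on the lower. The metallothionein gene Mt4, among the 20 highest ratios, was at 5.91, 29.3 and 6.44 FPKM, and Mt3 was also higher (7.76 and 16.8 FPKM), neither of them being in the list.

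**Figure D4:**
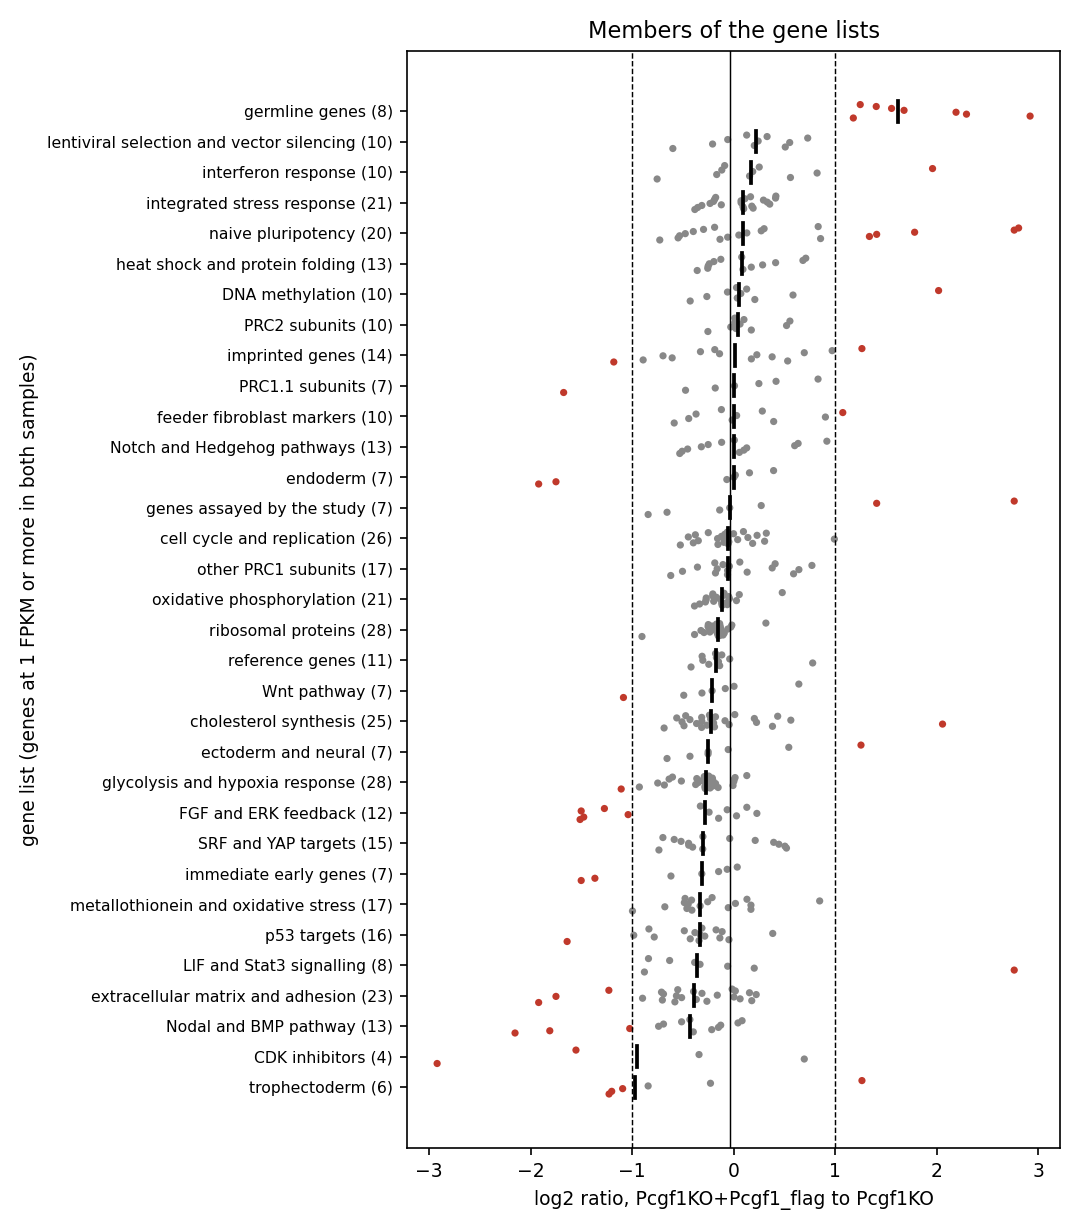
Log2 ratio of Pcgf1KO+Pcgf1_flag to Pcgf1KO for each member at 1 FPKM or more in both samples, for lists with at least 4 such genes (number in brackets), with list medians as black bars, genes past 2-fold in red and dashed lines at 2-fold. The germline list lies wholly to the right of the 2-fold line with a median of 1.62, and no other list has a median beyond 1 in either direction.

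The study had assayed a set of genes by other methods, partly chosen from these same samples, so their ratios are no independent evidence. Of 17 such genes 15 were under a single name in both samples and 7 at the minimum, of which Nanog and Klf4 were past 2-fold, beside 3.25% higher over all genes. The mesoderm receptor gene Kdr was at 0.198 FPKM in Pcgf1KO, 1.33 in Pcgf1KO+Pcgf1_flag and 2.13 in wildtype, and Hes2, a Hes family repressor, at 0.345, 0.871 and 2.04 FPKM. Hhip, a Hedgehog-binding protein, was at 0.0105, 0.256 and 0.443 FPKM. These 3 genes had the order knockout, re-expressing, wildtype from low to high, at levels below the minimum in Pcgf1KO. Among the assayed genes, 7 were above 0 in both samples and below 1 FPKM in at least 1. Of these 7, 3 were more than 2-fold higher, namely Kdr, Hes2 and Hhip, and 1 was more than 2-fold lower. Over all genes in that range 39.5% were higher and 9.82% lower, so these counts are no result about the assayed genes. Nptx1 was at 0.382, 0.446 and 0.789 FPKM, inside 2-fold. The endoderm factor Gata6 was at 0.410, 0.129 and 0.136 FPKM, and Gata4 at 0.841 and 0.805 FPKM.

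The changed genes were spread over all chromosomes. The X chromosome had 19 higher and 3 lower genes of 284 (6.69% and 1.06%), among them the 3 Rhox genes, which lie in one cluster, and Fundc2. Chromosome 11 had 35 higher and 10 lower genes of 742 (4.72% and 1.35%), and chromosome 14 had 16 and 7 of 311 (5.14% and 2.25%). Chromosome 10 leaned the other way with 7 higher and 17 lower of 458 (1.53% and 3.71%), as did chromosome 18 with 7 and 11 of 224 (3.125% and 4.91%). Over all genes 3.25% were higher and 2.83% lower. The chromosomes named are examples, and no difference between chromosomes was tested. Median log2 ratios of the autosomes and the X lay between -0.09 and 0.04.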

How the data were processed

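RNA was sequenced from 1 sample each of Pcgf1KO, Pcgf1KO+Pcgf1_flag and wildtype ES cells as poly(A) libraries. The submitters' processing notes name TopHat2 2.0.12, Cufflinks 2.2.1 and HTSeq 0.6.0 with mm10. The files the authors deposited, 1 per sample, give an FPKM to every annotated event of a transcript, such as a first or last exon, and the program behind them is not given in the sources used here. No counts were used, so no count test was run. Between 62.0% and 63.6% of the rows were at 0, and a 0 can be a failed estimate.

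The value of a gene was the larger of its summed first-exon FPKM and its summed last-exon FPKM. Rows with several names, no name or a name turned into a date were left out. At 4975 of the 8883 genes both sums were equal in both samples. Ratios were taken without a pseudocount at 1 FPKM or more in both samples, and a gene was called past 2-fold without a test. The members and the 36 gene lists were chosen with earlier results of these data known. Named were Pcgf1, the 20 highest and 20 lowest ratios, the 10 highest and 10 lowest at 10 FPKM or more, every list member past 2-fold, all members of the PRC1.1, feeder and study-assayed lists, and up to 4 members of each other list with the highest Pcgf1KO value. Other members were named to account for a list, after their values were seen. Depth is known only from the steps of the values. Gene positions came from GENCODE vM21 and promoter windows from RefSeq (GRCm38.p6), taken as the window within 1000 bases of the most used first exon. The E-box letters were added after the data were seen. The script was tested on simulated data for this comparison and recovered 200 of 200 planted 4-fold changes among 9295 genes. The changes were planted in well-expressed genes of a copy of the Pcgf1KO values with no other difference. The test therefore checks the code and not calls between real libraries. Python 3.11.15, numpy 2.4.6, pandas 2.3.3 and matplotlib 3.10.9 were used.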

Additional observations from a re-analysis of the deposited data

Results flagged for a closer look

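Genes at 0 in a sample had no ratio. There were 21 genes at 5 FPKM or more in Pcgf1KO+Pcgf1_flag that were listed at 0 in Pcgf1KO, such as Rnaseh2a (49.6 FPKM, wildtype 53.8) and Sox15 (28.7 FPKM, wildtype 0). In the other direction there were 17, such as Pcnp (73.9 FPKM in Pcgf1KO, wildtype 79.5) and Lars2 (1650 FPKM, wildtype 0). A 0 in a gene that is abundant in the other samples can be a failed estimate, and this was not tested. Of the 14 genes of the 2-cell-like state, 10 were under a single name in both samples. Of these 10, 7 were listed at 0 in Pcgf1KO and above 0 in Pcgf1KO+Pcgf1_flag (Zscan4c, Zscan4d, Zscan4f, Zfp352, Gm8300, Usp17lc and Gm4340, from 0.0332 to 0.521 FPKM), and all 7 were at 0 in wildtype. Over all single-name genes, 12939 were above 0 in Pcgf1KO and 13712 in Pcgf1KO+Pcgf1_flag. The share of all genes that went from 0 to above 0 was not taken, so the count is no result about these 7 genes. Eif1a, the only member of that list at 1 FPKM or more in both samples, was at 102 and 76.7 FPKM. The largest FPKM in the Pcgf1KO+Pcgf1_flag list, 318520, was on a row without a gene name on chromosome 16. All of these lay outside the comparison.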

How the results depend on the processing

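No paired analysis was possible because each group had 1 sample. The counts of higher and lower genes (289 and 251, 53.5% of the changed genes higher) became 152 and 162 (48.4%) with a pseudocount of 1 FPKM, 135 and 115 over genes with equal first-exon and last-exon sums (of which there are fewer), 73 and 117 (38.4%) at a minimum of 5 FPKM, 38 and 65 (36.9%) at 10 FPKM, 1634 and 572 (74.1%) with no filter and a pseudocount of 0.1 FPKM, and 746 and 804 (48.1%) for a 1.5-fold call. They stayed within 1.5 times with a pseudocount of 0.1 FPKM, first-exon sums, last-exon sums, scaling to a median of 0, and protein-coding genes only, the last chosen after seeing the data. The median over all genes moved by no more than 0.1 under any of these. List medians moved by more in 12 of the 36 lists at 5 FPKM, 13 at 10 FPKM and 13 with no filter. They also did so in 9 lists over genes with equal sums and 7 with last-exon sums, and in no more than 3 under each other setting. At 10 FPKM the median of LIF and Stat3 signalling went from -0.36 to -0.61 and that of naive pluripotency from 0.09 to -0.13. The primitive streak and mesoderm list had no gene at 10 FPKM. The 2-cell-like list had none with equal sums or last-exon sums. Among 206 named genes, 4 of those past 2-fold changed sign, namely Tonsl with first-exon sums (log2 ratio 0.80) and Pcbp3 (0.13), Gtf2f2 (0.0327) and Nol7 (1.13) with last-exon sums, which differ in the sums they use. Sign changes of named genes inside 2-fold were not counted. With a pseudocount of 1 FPKM, 7 named genes were no longer past 2-fold (Tbx3, Tead4, Thy1, Sycp3, Smad7, Fgfr1 and Tcf7l2). The same held for Smad7 after scaling to a median of 0, Rhox5 with first-exon sums and Sycp3 with last-exon sums.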
